A study of Homo sapiens with 6 samples.

Results

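Proteasome genes were followed through LIN28B depletion in a line of human embryonic kidney cells, HEK293 T-REx Flp-In. A gene was taken as a member when its current symbol began with PSM, a letter between A and G and a digit. PSMB9 was left out by that rule, and each gene was read by its probe set of highest mean over the 6 arrays. The rule gave 40 genes of 11584 in the table, and 3 of them matched by name alone. PSMA3-AS1 is an antisense RNA of PSMA3, PSMC3IP encodes a cofactor of homologous recombination, and PSME3IP1 encodes a protein that binds PSME3. Of the other members, 27 encode constitutive subunits of the 20S core and the 19S cap. The proteasome genes PSMA6, PSMA8, PSMB8, PSMB11, PSMC5, PSMD5, PSMD7, PSMD13, PSME2 and PSME4 had no probe set with a single symbol and are no members.

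The proteasome is the protease that degrades proteins tagged with ubiquitin. Its 20S core is a stack of alpha and beta rings, with the protein-cutting sites inside the beta rings. The 19S cap binds tagged proteins, removes the ubiquitin and threads the chain into the core with a ring of ATPases. Dedicated chaperones assemble the rings and leave before the particle works, and interferon can replace the cutting beta subunits by inducible ones. Subunit genes are often transcribed together, and NFE2L1 is a transcription factor known for raising them when proteasome activity is short.

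Total RNA was read on 6 Affymetrix U133 arrays, 2 in each of 3 groups. The first group was transfected with siRNAs against LIN28B, an RNA-binding protein, the second was mock transfected and induced, and the third was mock transfected and not induced. All groups carried the inducible LIN28B copy with a FLAG/HA tag at a recombinase site, and no array here carried RNA from cells given a siRNA with another target. The knockdown comparisons thus include any effect of siRNA transfection, and the labels do not say whether the knockdown cells were induced. The protocols name doxycycline (250 ng/ml, 15 to 20 h) for cells that were crosslinked and state no induction time for the cells behind these arrays. Values are deposited log2 values after GCRMA, and a difference is the knockdown mean minus the mock mean on that scale. A gene was called where limma gave a Benjamini-Hochberg adjusted p under 0.05 over all 11584 genes. Separate cultures are not named for the replicate arrays, so the p-values rest on a spread that may be technical, and 2 arrays a group limit the precision. In RNA from a whole culture, fewer cells of a type and less RNA per cell cannot be told apart.

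LIN28B itself read 7.51 and 7.53 on the knockdown arrays, against 10.15 and 10.11 on the mock induced and 10.02 and 9.85 on the mock not induced arrays. Its level with knockdown was 18.7% of the mock not induced level (log2 difference -2.42, SE 0.078, limma adjusted p = 5.02e-07). Induction gave a difference of 0.19 in this probe set (adjusted p = 0.999), and whether the probe set reads the tagged copy is not given. Arrays of 1 group correlated over all genes at 0.9899 to 0.9937, and knockdown arrays with mock arrays at 0.970 to 0.9745. Of 31 markers of epithelial, fibroblast, blood, neuronal or adrenal, and pluripotent cells, 14 were in the table. The 4 measured neuronal and adrenal markers averaged 7.74 and 7.63 on the knockdown arrays and 7.03 to 7.22 on the mock arrays. CHGB, SYT1 and ELAVL2 rose and NEFL fell in that list. The epithelial list averaged 8.67 and 8.75 on the knockdown arrays and 8.61 to 8.76 on the mock arrays, but KRT8 and EPCAM rose (0.38 and 0.28) and KRT19 fell (-0.59). Of the other lists, VIM and KLF4 fell (-0.18 and -0.68), and none of the blood markers was called. The part of these markers in the results below was not tested.

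In knockdown against mock not induced cells, 5 proteasome genes rose, 6 fell and 29 did not pass. Of the 40, 27.5% were called, against 28.0% of all genes tested. The shares of higher and lower calls over all genes were 13.5% and 14.5%. The number of calls among proteasome genes was thus at the background, and no more is read from it. Of the members, 20 (50%) had an unadjusted p under 0.05, against 39.4% of all genes. The differences of all 40 ran from -0.61 to 0.43 with a median of 0.06, against 0.006 for all genes. Their median size without sign was 0.125, against 0.207 for all genes. By name, PSMB6, PSMB4, PSMC4, PSMC6 and PSMD10 rose, and PSMB10, PSMC2, PSMG3, PSMG4, PSMC3IP and PSME3IP1 fell. The fallen set therefore held 1 constitutive subunit, PSMC2. In the platform annotation, 5 of the 6 fallen members were read by a probe set with no RefSeq mRNA accession, PSMC2 among them. PSMB10 was the fallen member with an accession. Of the 5 risen members 1 had none, PSMB6, and of the 29 not passing 13 had none. The part of this in the calls was not tested. With each array centred on its median, 12 members were higher and 6 lower. Without the intensity trend in limma, PSMB6, PSMB10, PSMG4 and PSME3IP1 were the members still called, and in a fit of the 4 arrays compared PSMD10, PSMG3 and PSMC3IP lost their calls.

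**Figure D1:**
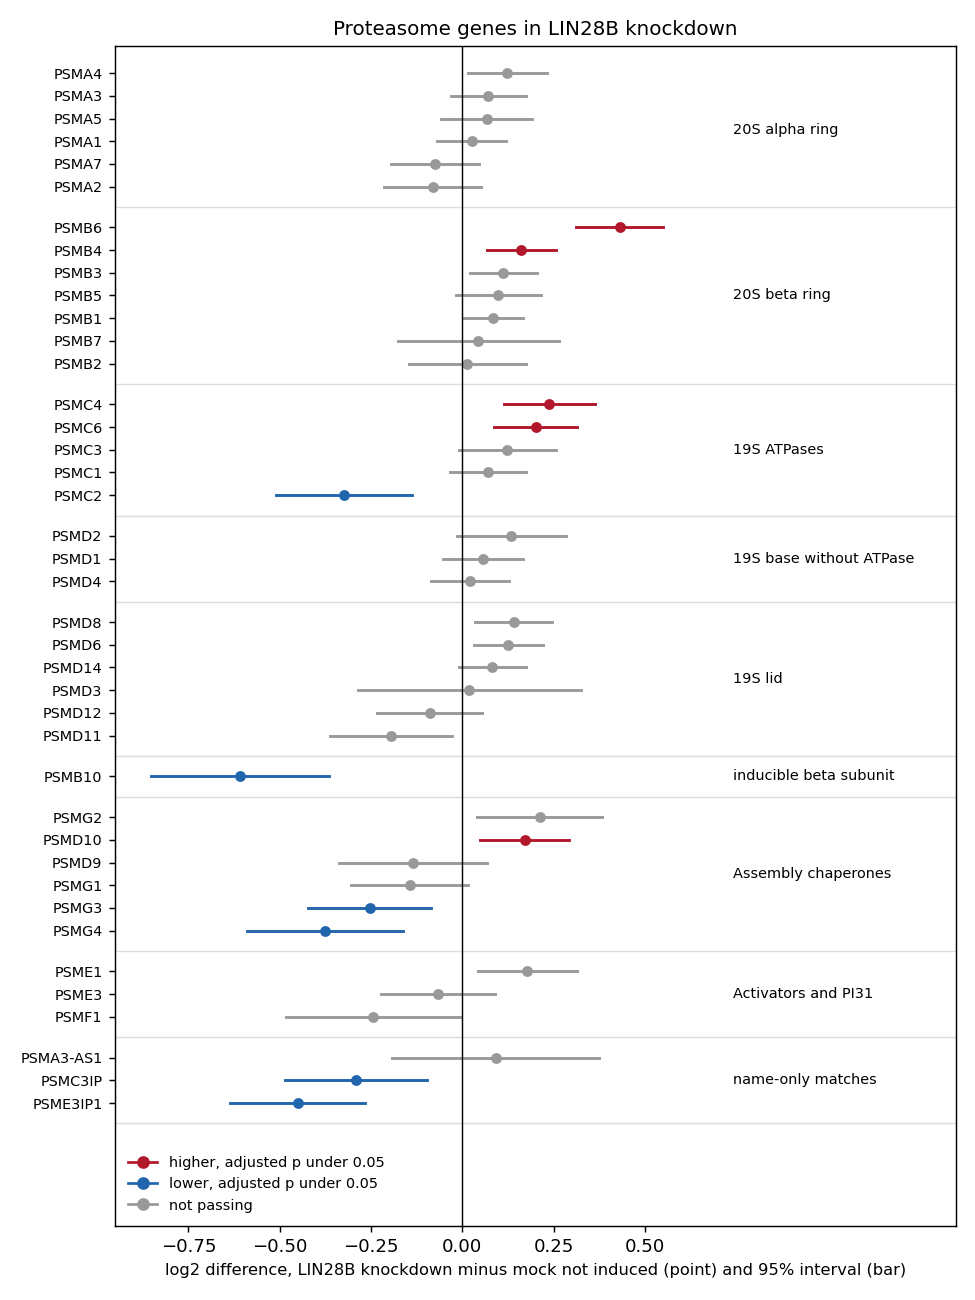
Log2 difference of each of the 40 proteasome genes, LIN28B knockdown minus mock not induced (point), with its 95% interval from limma (bar), grouped by role. PSMB6 stands highest at 0.43 and PSMB10 lowest at -0.61, and most intervals in grey reach or come close to 0.

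Promoter sequence was read from RefSeq, assembly GRCh38.p14, as 250 bases before and 50 after each start, for 34 of the 40 genes (42 promoters). PSMB6 and PSMG3 were not among the matched ones. The stretches before the start are shown for the risen genes that have an entry and for PSMB10, the member that fell furthest. Other fallen genes with an entry are not shown, so the stretches do not compare risen with fallen genes. They lie at chr1:151399323-151399572 (plus strand) for PSMB4, chr19:39970915-39971164 (plus strand) for PSMC4, chr14:52706950-52707199 (plus strand) for PSMC6, chrX:108091543-108091792 (minus strand) for PSMD10 and chr16:67936851-67937100 (minus strand) for PSMB10. Each is written 5′ to 3′ along the strand of its gene. Capitals mark matches to any of 3 motifs on either strand: TGACNNNGC, the core of the antioxidant response element bound by NFE2L1 and its relatives; CCAAT, the box bound by NF-Y; and the site of nuclear respiratory factor NRF1, given here by name.
PSMB4: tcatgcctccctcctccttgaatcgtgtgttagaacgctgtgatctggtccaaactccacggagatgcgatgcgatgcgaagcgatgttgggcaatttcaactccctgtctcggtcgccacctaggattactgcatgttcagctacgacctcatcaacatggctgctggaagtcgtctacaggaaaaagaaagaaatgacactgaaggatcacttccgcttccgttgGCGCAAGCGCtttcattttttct
PSMC4: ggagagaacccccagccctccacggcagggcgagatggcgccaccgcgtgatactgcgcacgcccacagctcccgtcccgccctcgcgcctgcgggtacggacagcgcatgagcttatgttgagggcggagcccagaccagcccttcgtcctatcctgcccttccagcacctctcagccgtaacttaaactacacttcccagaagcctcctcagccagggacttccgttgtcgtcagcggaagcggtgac
PSMC6: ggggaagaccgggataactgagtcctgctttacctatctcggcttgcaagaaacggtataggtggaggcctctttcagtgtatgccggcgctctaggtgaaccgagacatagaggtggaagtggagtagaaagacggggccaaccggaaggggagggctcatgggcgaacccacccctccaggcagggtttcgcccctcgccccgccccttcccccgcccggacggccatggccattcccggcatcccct
PSMD10: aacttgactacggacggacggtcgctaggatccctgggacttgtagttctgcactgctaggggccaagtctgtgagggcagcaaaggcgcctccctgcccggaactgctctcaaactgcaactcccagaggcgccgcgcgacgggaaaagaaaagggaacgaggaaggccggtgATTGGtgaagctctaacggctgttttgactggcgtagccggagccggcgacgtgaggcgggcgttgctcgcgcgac
PSMB10: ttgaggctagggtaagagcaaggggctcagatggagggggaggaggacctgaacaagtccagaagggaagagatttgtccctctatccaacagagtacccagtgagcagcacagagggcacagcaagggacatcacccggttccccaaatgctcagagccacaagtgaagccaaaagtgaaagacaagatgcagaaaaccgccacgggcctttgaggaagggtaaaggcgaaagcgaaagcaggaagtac

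PSMB4 held a match to the NRF1 site close to its start and PSMD10 a CCAAT on the strand opposite to the gene. PSMC4 held TGACNNNGC only after its start, outside the stretch shown, and PSMC6 and PSMB10 held none of the 3. Of the fallen genes with an entry that are not shown, PSMC2, PSMC3IP and PSME3IP1 held CCAAT before a start. PSMG4 held none of the 3. Over the 300-base windows, TGACNNNGC was in 11 of the 42 member promoters (26.2%), against 13.3% of all 35116 promoters. CCAAT was in 21 (50%), against 34.6% of all promoters, and the NRF1 site was in 5 (11.9%), against 5.78%. The 42 include promoters of the genes that match by name alone. Among these, PSMA3-AS1 held all 3 motifs, and PSMC3IP and PSME3IP1 held CCAAT, so the member shares are partly theirs. The matches are letters in a window, and the motifs can overlap. Their relation to the measured differences was not tested.

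The 20S core was led by PSMB6, which encodes a beta subunit with caspase-like cutting activity. PSMB6 read 11.21 and 11.23 on the knockdown arrays, against 10.72 and 10.76 on the mock induced and 10.74 and 10.84 on the mock not induced arrays. Both knockdown arrays lay above all 4 mock arrays, while the mock groups overlapped each other. Its difference from mock not induced was 0.43 (SE 0.0533, limma adjusted p = 4.49e-04), a level of 135% of mock. It was the one risen member that kept its call under every alternative run beside the fold minimum, including the loss of any 1 array. PSMB4, a beta subunit that cuts no substrate itself, read 12.19 and 12.26 with knockdown, against 12.14 and 12.07 in mock induced and 12.07 and 12.06 in mock not induced cells. The knockdown arrays were again the highest, by a smaller margin, with a difference of 0.16 (SE 0.0426, limma adjusted p = 0.019). A second probe set of PSMB4 differed by -0.01 (limma adjusted p = 0.973), and the call was lost without knockdown replicate 2 or without mock not induced replicate 2. The values of PSMB4 without 1 array ran over 0.13 to 0.20.

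The other constitutive core genes did not pass, and they leaned upward in the beta ring. All 7 beta genes, the called PSMB6 and PSMB4 included, had a positive difference, with a median of 0.10. Over all genes tested, 50.8% had a positive difference. PSMB3, a structural beta subunit, came nearest at 0.11 (limma adjusted p = 0.0666). The remaining cutting subunits were PSMB5, of chymotrypsin-like activity, at 0.10 (interval -0.02 to 0.21), and PSMB7, of trypsin-like activity, at 0.04 (interval -0.18 to 0.26). PSMB1 and PSMB2 stood at 0.08 and 0.01. None of the 6 alpha ring genes, which form the gate of the core, passed, and their median was 0.05. They lay between PSMA2 at -0.08 and PSMA4 at 0.12 (limma adjusted p = 0.0869).

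Among the 5 measured ATPases of the 19S base, 2 rose, 1 fell and 2 did not pass, against 13.5% higher and 14.5% lower over all genes. PSMC4 read 11.08 and 11.17 on the knockdown arrays, against 10.88 and 10.95 on the mock induced and 10.84 and 10.93 on the mock not induced arrays. The knockdown arrays were the highest of the 6, with a difference of 0.24 (SE 0.0559, limma adjusted p = 0.011). Without knockdown replicate 2 the difference was 0.20 and the adjusted p from limma 0.095. PSMC6 read 11.03 and 11.04 with knockdown, against 10.80 and 10.78 in mock induced and 10.87 and 10.79 in mock not induced cells. Both knockdown arrays again lay above all 4 mock arrays, and the difference from mock not induced was 0.20 (SE 0.0511, limma adjusted p = 0.0163). Its call was lost without either knockdown array or without mock not induced replicate 2, where the values ran over 0.16 to 0.20.

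PSMC2, another ATPase of the same ring, went the other way. It read 8.697 and 8.755 on the knockdown arrays, against 9.001 and 8.912 on the mock induced and 9.131 and 8.968 on the mock not induced arrays. Both knockdown arrays lay below all mock arrays, with a difference of -0.32 (SE 0.0838, limma adjusted p = 0.0176). This call was lost without either knockdown array or without mock not induced replicate 1, with values of -0.35 to -0.24. PSMC1 and PSMC3 did not pass, at 0.07 and 0.12. The difference between PSMC2 and the other ATPases was not tested.

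No gene of the 19S base without ATPase activity and none of the 6 lid genes passed. The scaffold genes PSMD1 and PSMD2 stood at 0.06 and 0.13, and the ubiquitin receptor gene PSMD4 at 0.02 (interval -0.09 to 0.13). In the lid, PSMD8 at 0.14 and PSMD6 at 0.13 missed the threshold narrowly (limma adjusted p = 0.0509 and 0.0513). PSMD14, the subunit that removes ubiquitin from substrates, stood at 0.08 (interval -0.01 to 0.17). PSMD11 was the lowest lid gene at -0.19 (limma adjusted p = 0.0789), and PSMD12 stood at -0.09. PSMD3 read 7.96 and 7.82 with knockdown, against 7.87 and 7.94 in mock induced and 7.65 and 8.09 in mock not induced cells. The mock not induced arrays thus enclosed all others for PSMD3, which leaves its difference of 0.02 with an interval of -0.28 to 0.32.

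PSMB10 fell furthest among the members. It encodes the interferon-inducible beta subunit that can take the place of PSMB7. It read 7.06 and 6.92 on the knockdown arrays, against 7.55 and 7.51 on the mock induced and 7.68 and 7.52 on the mock not induced arrays. Both knockdown arrays lay below all 4 mock arrays, and the knockdown level was 65.6% of mock not induced (difference -0.61, SE 0.109, limma adjusted p = 0.00286). The call held in the same alternatives as that of PSMB6 and at a minimum of 1.5-fold, which PSMB6 did not reach. PSMB9, the inducible counterpart of PSMB6 left out by the rule, stood at 5.73 and 6.01 with knockdown, against 5.41 and 5.30 in mock induced and 4.71 and 4.75 in mock not induced cells. The PSMB9 difference was 1.14 from mock not induced (limma adjusted p = 0.00109) and 0.52 from mock induced cells (limma adjusted p = 0.0428). Mock induced minus mock not induced was 0.62 for PSMB9 (limma adjusted p = 0.999). In both knockdown comparisons PSMB9 was thus higher and PSMB10 lower. PSMB9 read lower on every array than any member, and its mock groups differed by more than knockdown and mock induced did.

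**Figure D2:**
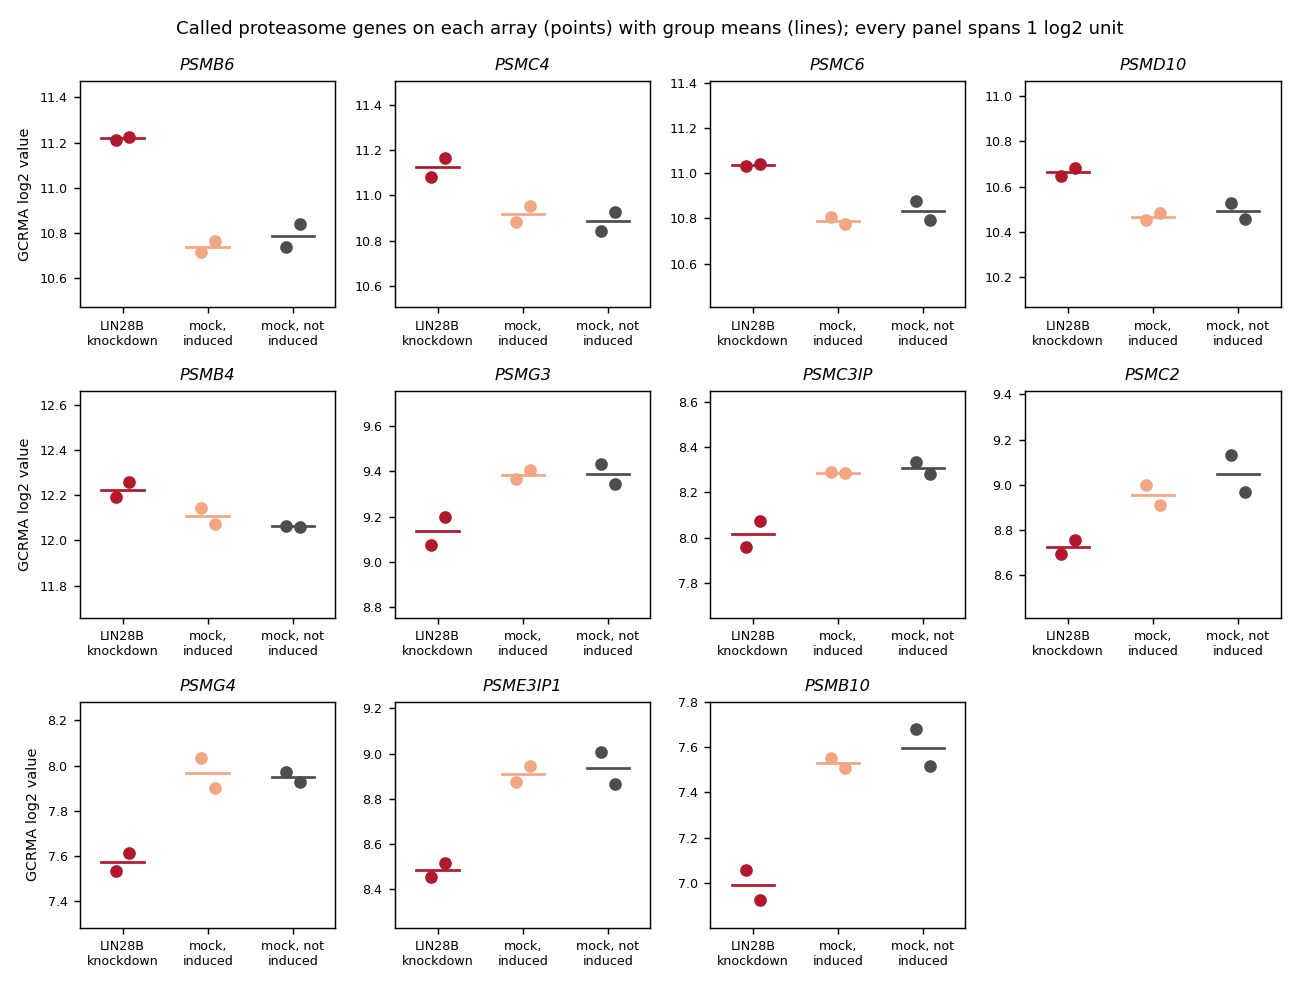
GCRMA log2 value on each of the 6 arrays (points) with group means (lines) for the 11 called proteasome genes, in panels that each span 1 log2 unit. In every panel both knockdown arrays lie on 1 side of all 4 mock arrays, and PSMB6 and PSMB10 show the widest gaps. The genes were called on these same arrays, which favours such gaps. Over all genes tested, 27.1% lay above and 26% below all 4 mock arrays.

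Of the 6 measured assembly chaperones, 1 rose, 2 fell and 3 did not pass, against 13.5% higher and 14.5% lower over all genes. PSMG3 and PSMG4 encode partners of 1 heterodimer that helps to build the alpha ring, and both fell. PSMG4 read 7.53 and 7.61 with knockdown, against 8.03 and 7.90 in mock induced and 7.97 and 7.93 in mock not induced cells. PSMG3 read 9.07 and 9.20 with knockdown, against 9.36 and 9.41 in mock induced and 9.43 and 9.34 in mock not induced cells. Both genes were lowest on the knockdown arrays, with differences of -0.38 (SE 0.0956, limma adjusted p = 0.0161) for PSMG4 and -0.25 (SE 0.0749, limma adjusted p = 0.0308) for PSMG3. The PSMG4 call was lost without either knockdown array, with values of -0.42 to -0.34. The PSMG3 call was lost when any array other than mock not induced replicate 2 was left out, with values of -0.31 to -0.19.

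The partners of the other alpha-ring heterodimer did not pass. PSMG1 stood at -0.14 (interval -0.30 to 0.02) and PSMG2 at 0.21 (interval 0.04 to 0.38). PSMD10, also known as gankyrin, binds the ATPase PSMC4 while the base is built. It read 10.65 and 10.68 with knockdown, against 10.45 and 10.48 in mock induced and 10.53 and 10.46 in mock not induced cells. The knockdown arrays were the highest, but the margin was small: the difference was 0.17 (SE 0.0544, limma adjusted p = 0.0415), and the call was lost when any array other than mock not induced replicate 1 was left out (values of 0.14 to 0.19). PSMD9, another base chaperone, stood at -0.13 (limma adjusted p = 0.308).

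None of the 3 genes of activators and inhibitors passed. PSME1, a subunit of the interferon-inducible activator, stood at 0.18 (limma adjusted p = 0.0529), and PSME3, the nuclear activator, at -0.07. PSMF1, which encodes PI31, stood at -0.24 (limma adjusted p = 0.116). Both knockdown arrays of PSMF1 read below all mock arrays, at 6.96 and 6.84 against 7.24 and 7.24 in mock induced and 7.15 and 7.13 in mock not induced cells.

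The genes that match by name alone carried 2 of the 6 lower calls. PSME3IP1 read 8.45 and 8.52 with knockdown, against 8.87 and 8.95 in mock induced and 9.01 and 8.87 in mock not induced cells. Its difference was -0.45 (SE 0.0825, limma adjusted p = 0.00327), and the call was kept whichever array was left out. PSMC3IP read 7.96 and 8.07 with knockdown, against 8.29 and 8.29 in mock induced and 8.33 and 8.28 in mock not induced cells. The knockdown arrays of both genes were lowest. The difference of PSMC3IP was -0.29 (SE 0.0869, limma adjusted p = 0.0324), and its call was lost when any array other than mock not induced replicate 2 was left out (values of -0.35 to -0.23). PSMA3-AS1 stood at 0.09 and did not pass. Without these 3 genes, 5 of 37 rose (13.5%) and 4 fell (10.8%), against 13.5% and 14.5% of all genes.

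Read together, the 27 constitutive subunits gave a narrow shift. Of them, 4 rose, 1 fell and 22 did not pass, so 14.8% were called higher and 3.70% lower, against 13.5% and 14.5% of all genes. The share called higher was near the background. A positive difference was seen for 22 (81.5%), against 50.8% of all genes. Their median difference was 0.07. This grouping was chosen after the values were seen. On the knockdown arrays, the median deviation of the 27 genes from their own mean over 6 arrays was 0.051 and 0.067. It was -0.018 and -0.051 on the mock induced and -0.036 and -0.018 on the mock not induced arrays. Both knockdown arrays thus lay above the 4 mock arrays in this median, and the matching medians of all genes lay between -0.004 and 0.011.

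**Figure D3:**
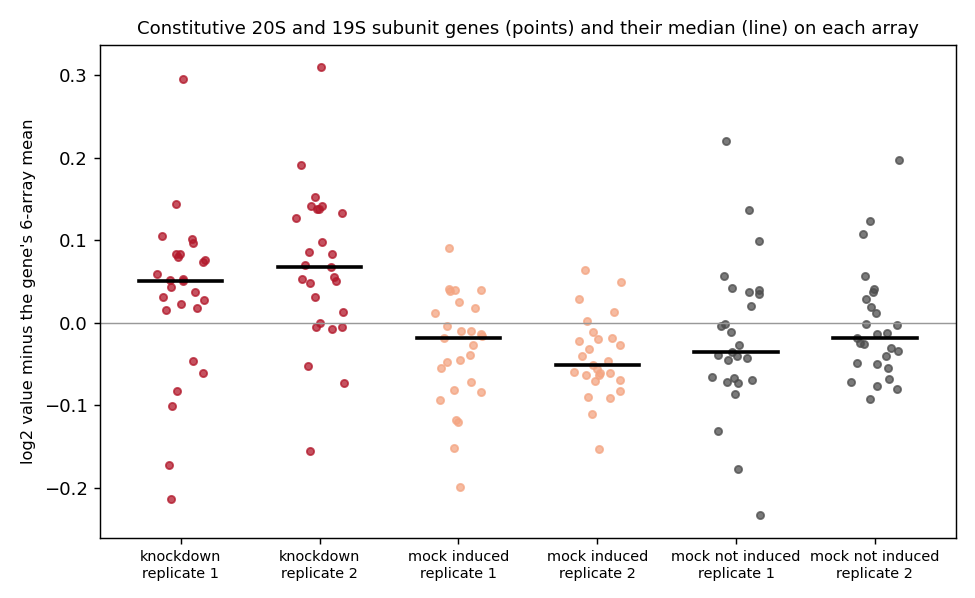
Log2 value minus the gene's mean over 6 arrays for each of the 27 constitutive 20S and 19S subunit genes (points), with their median (line), on each array. The medians are 0.051 and 0.067 on the knockdown arrays and below 0 on every mock array, and single genes on each array lie on both sides of 0.

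For 17 of the 27 constitutive subunit genes (63.0%), both knockdown arrays read above all 4 mock arrays, and for 2 (7.41%), PSMC2 and PSMD11, both read below. Of all 40 proteasome genes, 20 (50%) lay above and 11 (27.5%) below. Over all genes tested, the shares were 27.1% above and 26% below. Highly read genes leaned upward as well: of the 927 genes with a mean above 10, 40.6% lay above and 28.7% below. Among the 22 constitutive subunits with a mean above 10, 16 (72.7%) lay above and 0 below. Their median difference was 0.08, against 0.03 for the genes with a mean above 10. The part of signal level in the shift was not tested. After quantile normalization between the arrays the count of subunits above all mock arrays was 11 of 27 (40.7%), against 28.0% of all genes, and the median difference of the 27 was 0.04.

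**Figure D4:**
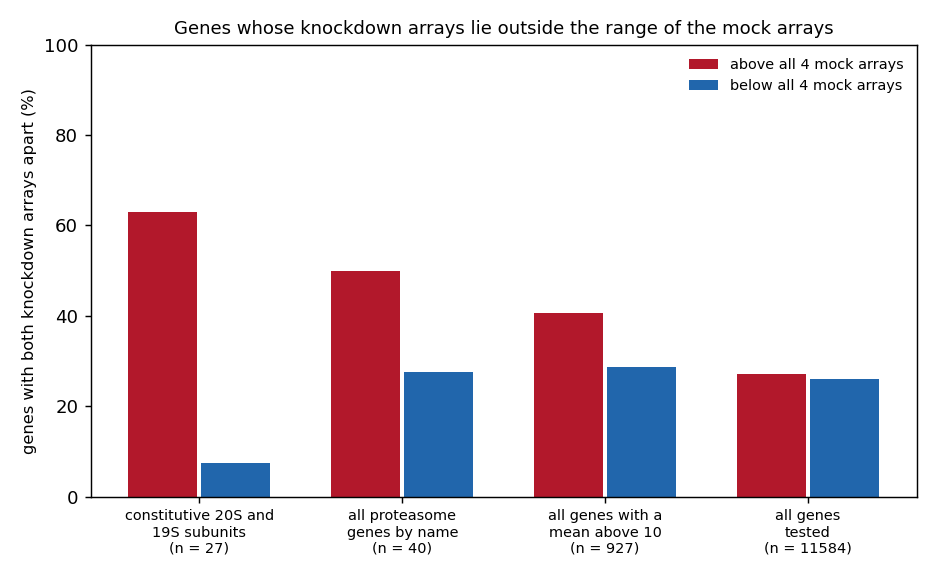
Share of genes whose 2 knockdown arrays both read above (red) or both below (blue) all 4 mock arrays, in percent, for 27 constitutive subunits, all 40 proteasome genes, 927 genes with a mean above 10 and all 11584 genes. The subunits stand at 63.0% above and 7.41% below, and all genes at 27.1% and 26%.

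In knockdown against mock induced cells, which uses the same knockdown arrays, 12 proteasome genes rose, 6 fell and 22 did not pass. The share called was 45.0%, against 28.4% of all genes, of which 14.0% were higher and 14.5% lower. PSMB6, PSMC4, PSMC6 and PSMD10 rose here too, at 0.48, 0.21, 0.24 and 0.20. The other 8 higher genes were PSMA4, PSMB5, PSMC3, PSMD14, PSMD6, PSMD8, PSMG2 and PSME1. Among them PSMG2 had the widest difference at 0.33 (SE 0.077, limma adjusted p = 0.011). PSMG2 read 11.29 and 11.23 with knockdown, against 10.99 and 10.87 in mock induced and 11.17 and 10.93 in mock not induced cells. PSMB4 was at 0.12 and PSMC2 at -0.23, and neither passed (limma adjusted p = 0.0664 and 0.0657). The 6 lower genes were PSMB10, PSMG3, PSMG4, PSMF1, PSMC3IP and PSME3IP1, with PSMB10 at -0.54. After quantile normalization between the arrays 5 were higher and 6 lower, a share of 27.5% called, against 28.4% of all genes. The count of higher genes also rested on single arrays: it was 1 without mock induced replicate 2 and 3 without mock induced replicate 1 or either knockdown array.

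Set against the mean of both mock groups, 15 members rose, 7 fell and 18 did not pass. The share called was 55.0%, against 34.6% of all genes (16.9% higher and 17.7% lower). PSMB3 and PSMD2 rose in this comparison, at 0.11 and 0.17 (limma adjusted p = 0.0349 and 0.0491). Of the constitutive subunits, 12 rose, 1 fell and 14 did not pass. These counts use the same knockdown arrays as above. They are not given under other normalizations or without single arrays, where the counts against mock induced cells moved.

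Between mock induced and mock not induced cells, 0 of the 40 proteasome genes and 0 of all genes (0%) were called by limma. No member had an unadjusted p under 0.05, and 344 genes of the whole table did. The differences of the members ran from -0.14 to 0.10 with a median of -0.02, against -0.005 for all genes. PSMB6 stood at -0.05 (interval -0.17 to 0.07) and PSMB10 at -0.07 (interval -0.31 to 0.17).

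Outside the PSM names, other components and binding partners of the proteasome read lower more often than higher with knockdown. Of 17 measured of 19 listed, 2 rose, 6 fell and 9 did not pass, with a median of -0.22, against shares of 13.5% higher and 14.5% lower over all genes. Against mock induced cells the same list had a median of -0.08, with 2 higher and 6 lower. UCHL5, a deubiquitinating enzyme of the 19S cap, fell furthest, read by a probe set ending in _x_at, which can pick up related transcripts. It read 7.597 and 7.715 on the knockdown arrays, against 8.635 and 8.570 on the mock induced and 8.757 and 8.623 on the mock not induced arrays, a level of 48.8% of mock not induced (difference -1.03, SE 0.0911, limma adjusted p = 9.23e-05). ADRM1, the ubiquitin receptor that docks UCHL5, fell as well (-0.22, limma adjusted p = 0.0256, and -0.09 with adjusted p = 0.295 against mock induced), as did ECPAS, which binds core and cap, RAD23B, a shuttle for tagged proteins, PITHD1 and PAAF1. PAAF1 lost its call whichever array was left out, and ADRM1 lost it without either knockdown or either mock induced array.

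The 2 risen genes were SEM1 and TXNL1. SEM1, a small lid subunit without a PSM symbol, read 11.79 and 11.72 with knockdown, against 11.52 and 11.45 in mock induced and 11.47 and 11.49 in mock not induced cells (difference 0.28, limma adjusted p = 0.00223). TXNL1, a thioredoxin-like protein bound to the 19S cap, differed by 0.30 (limma adjusted p = 0.00152). AKIRIN2, which helps proteasomes into the nucleus, read 7.596 and 7.540 with knockdown, against 7.543 and 7.647 in mock induced and 9.089 and 7.641 in mock not induced cells. Its difference of -0.80 did not pass, and mock not induced replicate 1 stood apart from the other 5 arrays.

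Of 10 listed genes for transcription of proteasome genes and its regulators, 6 were measured, 1 rose, 1 fell and 4 did not pass. The share called was 33.3%, near the 28.0% of all genes. NFE2L1 read 8.79 and 8.75 on the knockdown arrays, against 8.27 and 8.25 on the mock induced and 8.13 and 8.48 on the mock not induced arrays. All knockdown values were above all mock values, with a difference of 0.46 (SE 0.112, limma adjusted p = 0.0127). NFE2L1 was read by a probe set ending in _s_at, which can pick up related transcripts. The mock not induced arrays were far apart, the call was lost without either knockdown array, and without mock not induced replicate 1 the difference was 0.29. BACH1, a repressor that binds antioxidant response elements, read 5.28 and 5.19 with knockdown, against 6.47 and 6.47 in mock induced and 6.24 and 6.37 in mock not induced cells. Its level with knockdown was 47.5% of mock not induced (difference -1.07, SE 0.134, limma adjusted p = 4.69e-04). Whether these genes bear on the subunit values was not tested.

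Most of the remaining lists held calls in both directions, and their counts stand against 28.0% of all genes called. Of 23 measured of 35 listed genes for ubiquitin and its conjugating enzymes, 4 rose and 5 fell, with UBE2L6 at 1.15 and UBE2Z at -0.99. Of 20 of 21 genes of p97, the ATPase that extracts tagged proteins, and its cofactors, 4 rose and 2 fell, DERL1 and UFD1 among the risen at 0.50 and 0.31. DERL1 was at 0.29 without mock not induced replicate 2. All 10 COP9 signalosome genes, relatives of the lid, were measured, and 3 rose and 1 fell, with COPS7B at 0.94. Of 12 of 14 CCT chaperonin and prefoldin genes, 4 rose and 2 fell, with PFDN1 at -0.65. Of 12 of 15 heat shock genes, 2 rose, HSPB1 at 0.70 and HMOX1 at 0.57, and 2 fell, the mitochondrial chaperonins HSPD1 and HSPE1. Of 8 of 11 antigen presentation genes, 3 rose and 0 fell: HLA-B at 0.47, HLA-C at 0.43 and B2M at 0.31. All 3 were read by probe sets ending in _x_at or _s_at, which can pick up related transcripts. In mock induced against mock not induced cells, 0 genes of any of these lists were called.

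**Figure D5:**
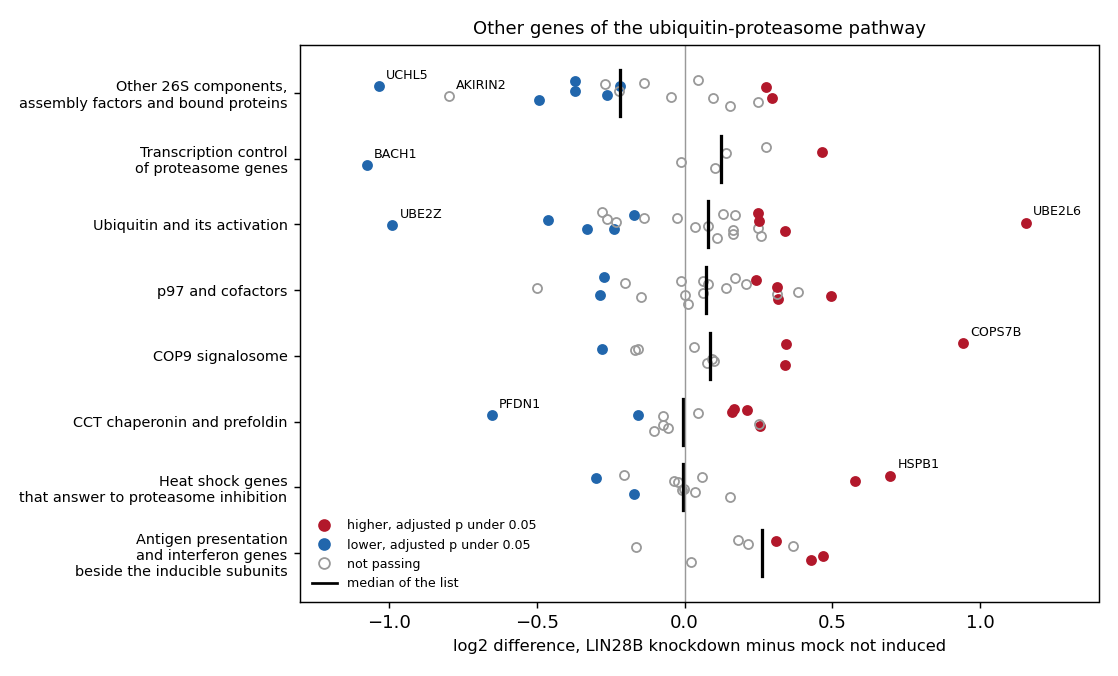
Log2 difference, LIN28B knockdown minus mock not induced, of each measured gene in 8 lists outside the members, with the median of each list (line). The lists run from other 26S components to chaperonin, heat shock and antigen presentation genes. Filled points were called higher or lower, and open points did not pass. The list of other 26S components has a median of -0.22 here (-0.08 against mock induced) with UCHL5 at its low end, and the antigen presentation list a median of 0.26.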

How the data were processed

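Log2 values as deposited by the authors, 1 per probe set, were used for all 6 arrays. The submitters' processing notes name affy and GCRMA, whose versions are not given in the sources used here. In GCRMA a model corrects background, then the method brings arrays to a common distribution and summarises probes, so a shift shared by most genes would be removed. The base of the logarithm was taken as 2, as GCRMA returns it. Per the labels, 2 µg of total RNA per array were labelled. The table holds 13008 probe sets, part of the array, chosen by a rule that the sources used here do not give. Of these, 11719 had 1 symbol, 609 several and 680 none in the platform annotation. Symbols were updated through the RefSeq table (11578 of 11584 genes matched).

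The 3 groups were fitted in 1 model with limma 3.58.1 in R 4.3.3 (lmFit, eBayes with intensity trend), two-sided, with Benjamini-Hochberg adjustment over all 11584 genes. A value above 4 on at least 2 arrays was required, which removed 0 probe sets, so all 40 proteasome genes were tested. All members were described, called ones with the value on every array. The pipeline was tested on simulated data. Replicate numbers share a correlation of deviations of 0.012 (knockdown and mock induced), -0.059 (knockdown and mock not induced) and 0.181 (both mock groups), so they were not used as pairs. Members and lists were chosen with earlier results of these data known. Of the members, 16 were read by probe sets ending in _x_at or _s_at, which can pick up related transcripts, among them PSMD10, PSMC3IP and PSME3IP1. Such probe sets also read genes of the other lists, among them UCHL5, PAAF1, PITHD1, NFE2L1, HLA-B, HLA-C and B2M. Promoter motifs were searched in Python 3.11.15.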

Additional observations from a re-analysis of the deposited data

How the results depend on the processing

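Against mock not induced cells, the counts of proteasome genes called were 5 higher and 6 lower. With arrays centred on their medians, 12 members and 9 constitutive subunits were higher, and the split over all genes was 1836 higher and 1521 lower, against 1563 and 1679 as deposited. The median difference of all genes was 0.036 when centred and 0.006 as deposited. Without the intensity trend, 1 member was higher and 3 lower, and 1 subunit was higher and 0 lower. At a minimum of 1.5-fold, 0 members were higher and 1 lower, and 0 subunits were higher and 0 lower. Against both mock groups, 15 members and 12 subunits were higher. Leaving out 1 array gave 1 to 7 members higher, 2 to 7 lower, 1 to 5 subunits higher and 0 to 1 lower. Against mock induced cells, where 12 were higher and 6 lower, quantile normalization gave 5 higher, no trend 1, and 1.5-fold 0 higher and 0 lower. Leaving out 1 array gave 1 to 13 higher and 2 to 7 lower. Leaving out probe sets ending in _x_at or _s_at left 7669 of the 11584 genes in the table. Over all genes, 3242 were called against mock not induced and 3295 against mock induced. These counts were 2129 and 2174 without probe sets ending in _x_at or _s_at, 1185 and 1177 at 1.5-fold, and 1659 to 3143 and 1701 to 3951 without 1 array. For induction, leaving out 1 array gave 0 to 1 call over all genes, the single call coming without mock not induced replicate 2. The median member difference of 0.06 was 0.091 when centred, 0.027 after quantile normalization and 0.096 without _x_at and _s_at probe sets. Subunits above all mock arrays, 17 of 27 in the main setting, were 11 of 27 after quantile normalization. Without _x_at and _s_at probe sets only 16 subunits remained. Of these, 13 (81.25%) lay above, against 26.8% of all genes left, and 1 below, where the main setting had 2 of 27 below. PSMB4 read by its lowest probe set had a difference of -0.0072. Fitted as a block, the replicate number gave similar counts: 7 members were higher and 6 lower against mock not induced, 11 and 6 against mock induced, and 0 for induction. Alternatives for the constitutive subunits were chosen after seeing the data. The cause of these moves was not tested. Signal over background was not available.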

Other observations

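Some proteasome probe sets fell outside the rule because their annotation lists several genes. PSMA6, an alpha ring gene listed with PRORP, was read by a pair of probe sets that disagreed. One read 8.11 and 8.03 with knockdown, against 8.29 and 8.14 in mock induced and 8.49 and 8.30 in mock not induced cells (log2 difference from mock not induced -0.32, limma adjusted p = 0.038). The other read 11.955 and 11.998 with knockdown, against 12.013 and 12.035 in mock induced and 11.964 and 12.023 in mock not induced cells (-0.02, limma adjusted p = 0.797). The probe set of PSME2, the partner of PSME1 in the interferon-inducible activator, lists MIR7703 as well and differed by 0.01 between knockdown and mock not induced cells. A probe set that lists PSMA2 with C7orf25 differed by -0.24 (limma adjusted p = 0.325), beside -0.08 for the probe set of PSMA2 alone. These values come from a fit over all 13008 probe sets.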
